A study of Mus musculus with 2 samples.

Results

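Histone genes were compared between double-positive (DP) thymocytes that lacked the zinc finger transcription factor Bcl11b and DP thymocytes that carried it. The set comprised every array probe whose array name or current gene symbol was that of a linker histone H1, a core histone H2A, H2B, H3 or H4, or one of their variants. It held 71 of 41174 probes and 49 of 27596 gene names. Probes entered by name and by no measured value, but the set was chosen with earlier results of these data known. Of the 71 probes, 61, of 43 genes, passed the filter on dim signals. The filter required a probe to be well above background in 1 genotype on both arrays.

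DP thymocytes are the CD4+ CD8+ stage of T cell development in the thymus. The deficient cells came from Bcl11bF/FCD4Cre/Tcra-/- mice, in which Cre driven by Cd4 control sequences deletes the floxed Bcl11b gene, and the control cells came from TCRa-/- mice. Both genotypes lacked Tcra, the T cell receptor alpha chain gene, so that both held DP cells before positive selection. The control carried no Cre in its label, and the labels used here give neither the mice per sample, their age, nor how DP cells were isolated. Each of 2 arrays, labelled as biological replicates 1 and 2, set 1 deficient sample in Cy5 against 1 control sample in Cy3, with no array in the reverse orientation. Dye and genotype therefore cannot be told apart, and the p-values rest on the spread between 2 arrays with 1 residual degree of freedom. In such bulk RNA, fewer cells of a type and less RNA per cell cannot be told apart either.

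Histone octamers of H2A, H2B, H3 and H4 wrap DNA into nucleosomes, and H1 binds the linker DNA between them. Replication-dependent histone genes lie in clusters, have no introns, are transcribed in S phase and give mRNAs that end in a stem-loop rather than a poly(A) tail. Replacement variants such as H2A.Z, H2A.X, macroH2A and H3.3 come from separate, mostly polyadenylated genes that are expressed throughout the cell cycle. In the thymus, DP cells include dividing blasts and small resting cells, and replication-dependent histone mRNA is generally found in the cells in S phase. The labels name a linear amplification kit and do not state its primer. A primer that binds poly(A) tails would copy stem-loop mRNAs poorly, and its part in the values was not tested.

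Stretches upstream of 6 genes are shown because these genes carry the main contrasts of the data. Probes named for H2ac20, H2ac1, H2ac10 and H2aj had the highest ratios, and H1f4 and H4c4 represent the classes whose ratios differed between the arrays. The sequences are from RefSeq on GRCm38.p6 and read 5′ to 3′ on the strand of the gene. Capitals mark matches on either strand to CCAAT (the CCAAT box), TATAAA (the TATA box), ATTTGCAT (the octamer) or AAACACA (the H1 box). No match overlapped another in these stretches. The H2ac20 stretch is the whole of the 191 bases between it and its divergent neighbour H2bc21.
H2ac20, chr3:96220881-96221071, minus strand: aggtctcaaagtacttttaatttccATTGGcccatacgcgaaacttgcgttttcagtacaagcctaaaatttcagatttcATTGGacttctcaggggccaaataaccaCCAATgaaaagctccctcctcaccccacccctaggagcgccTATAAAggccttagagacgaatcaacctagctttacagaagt
H2ac1, chr13:23934187-23934436, plus strand: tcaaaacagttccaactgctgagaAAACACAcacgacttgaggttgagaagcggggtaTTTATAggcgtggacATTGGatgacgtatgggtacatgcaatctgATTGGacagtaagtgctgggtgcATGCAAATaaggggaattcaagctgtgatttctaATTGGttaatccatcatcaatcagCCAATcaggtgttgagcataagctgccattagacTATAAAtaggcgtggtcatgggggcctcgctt
H2ac10, chr13:23533625-23533874, plus strand: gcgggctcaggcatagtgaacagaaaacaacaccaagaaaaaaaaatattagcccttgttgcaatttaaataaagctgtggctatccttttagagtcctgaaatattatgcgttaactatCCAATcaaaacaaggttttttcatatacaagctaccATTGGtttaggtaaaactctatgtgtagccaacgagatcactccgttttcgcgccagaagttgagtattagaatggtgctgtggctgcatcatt
H2aj, chr6:136807998-136808247, plus strand: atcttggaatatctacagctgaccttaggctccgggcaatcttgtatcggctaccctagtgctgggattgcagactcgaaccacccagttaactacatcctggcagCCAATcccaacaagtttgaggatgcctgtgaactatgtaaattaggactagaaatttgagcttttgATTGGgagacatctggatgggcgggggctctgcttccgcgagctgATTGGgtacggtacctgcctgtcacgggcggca
H1f4, chr13:23622559-23622808, minus strand: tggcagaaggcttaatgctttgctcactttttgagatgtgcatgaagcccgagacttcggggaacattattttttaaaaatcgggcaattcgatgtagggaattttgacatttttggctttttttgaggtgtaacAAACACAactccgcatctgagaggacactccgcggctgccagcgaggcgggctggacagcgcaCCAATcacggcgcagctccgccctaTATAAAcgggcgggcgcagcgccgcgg
H4c4, chr13:23581318-23581567, plus strand: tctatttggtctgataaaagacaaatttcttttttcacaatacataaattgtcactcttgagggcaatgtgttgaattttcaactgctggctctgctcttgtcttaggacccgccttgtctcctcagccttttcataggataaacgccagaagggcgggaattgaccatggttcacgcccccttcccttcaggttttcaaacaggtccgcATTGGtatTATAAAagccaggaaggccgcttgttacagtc

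Promoter windows from 250 bases before to 50 after the annotated start were matched for 42 of the 49 genes. A CCAAT match was found in 35 of the 42, or 83.3%, against 37.4% of all 32851 windows. The CCAAT letters stood in all 11 replication-dependent H2A windows, all 7 H2B windows and all 6 replication-dependent H1 windows, but in 2 of 5 H4 windows. TATAAA was in 21 of 42 windows against 13.6% of all windows, among them 4 of 5 H4 windows and none of the 5 replacement H2A windows. The octamer was in 11 of 42 windows against 1.74% of all windows, in 6 of 11 replication-dependent H2A and 4 of 7 H2B windows. The H1 box was in 10 of 42 windows against 7.18% of all windows, and 5 of the 6 replication-dependent H1 windows held it. These are matches of letters in short windows and not evidence of binding.

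The identity of the samples was read from marker genes. The brightest Bcl11b probe had ratios of -1.40 and -0.28, and whether it lies in the deleted part was not tested. All 11 DP thymocyte markers were kept, with summed processed signals of 189605 and 166692 in deficient and 245342 and 211349 in control cells on replicates 1 and 2. Their median was -0.24, and 9 were lower on both arrays. The 4 erythroid markers that were kept summed to 24593 and 43756 in deficient and 40007 and 10122 in control cells, so their order reversed between the arrays. Markers of natural killer cells (5 of 6 kept) summed to 8554 and 9029 in deficient and 4023 and 3817 in control cells. Macrophage markers (7 of 7) summed to 28246 and 30214 against 25581 and 9912, stromal markers (8 of 9) to 9303 and 3335 against 9520 and 1927, and B cell markers (5 of 6) to 3836 and 2845 against 5988 and 3581. The part of these other cells in the histone values was not tested.

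No histone probe passed the test. By limma on loess-normalised values, 0 of the 61 kept probes had a Benjamini-Hochberg adjusted p under the threshold of 0.05, as for 0.0% of all 21538 kept probes, and the smallest adjusted p among the histones was 0.085. At an unadjusted p under 0.05, 19 histone probes were higher in deficient cells and 1 was lower, against 14.0% and 13.0% of all kept probes. One of the 19, a probe named for H2az1, was not well above background in control cells and passed the filter through deficient cells alone. Among the 59 probes well above background in both channels on both arrays, 18 were higher and 1 was lower. A separate-channel limma fit treats the 2 dyes of a spot as 2 correlated samples and so has more residual degrees of freedom. It called 11 histone probes higher and 0 lower at an adjusted p under 0.05, against 3.22% and 2.51% of all kept probes. Among the 18 histone probes whose mean log2 intensity reached 16 it called 9, and among the 43 dimmer ones it called 2. Bright probes of the whole array had high ratios, and how many of them this fit called was not counted. Median centring of each array in place of loess called 17 higher and 0 lower, against 3.82% and 0.562% of all kept probes, and the scanner software's processed signals called 0, against 0.111% higher and 0.0279% lower. Nothing below is therefore described as a change unless a fit that called it is named.

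Ratios are given as log2 of deficient over control. On both arrays together, 31 of the 61 probes were higher in deficient cells, against 36.7% of all kept probes, 9 were lower, against 36.9%, and 21 had opposite signs. The median over the 61 probes was 0.18 on replicate 1 and 0.15 on replicate 2, and the median of the mean ratios was 0.14, against 0.00 for all kept probes. The 23 probes of replacement variants had a median of 0.26, with 16 higher and 3 lower on both arrays. Among the 21 of them well above background in both channels on both arrays, the median was 0.34, with 14 higher and 3 lower. The 38 replication-dependent probes had a median of 0.11, with 15 higher, 6 lower and 17 of opposite sign. By class, median ratios were 0.25 for H2A, 0.25 for H4, 0.22 for H3, 0.11 for H1 and -0.09 for H2B. Without the H2az1 probe that was not well above background in control cells, the H2A median was 0.20.

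**Figure D1:**
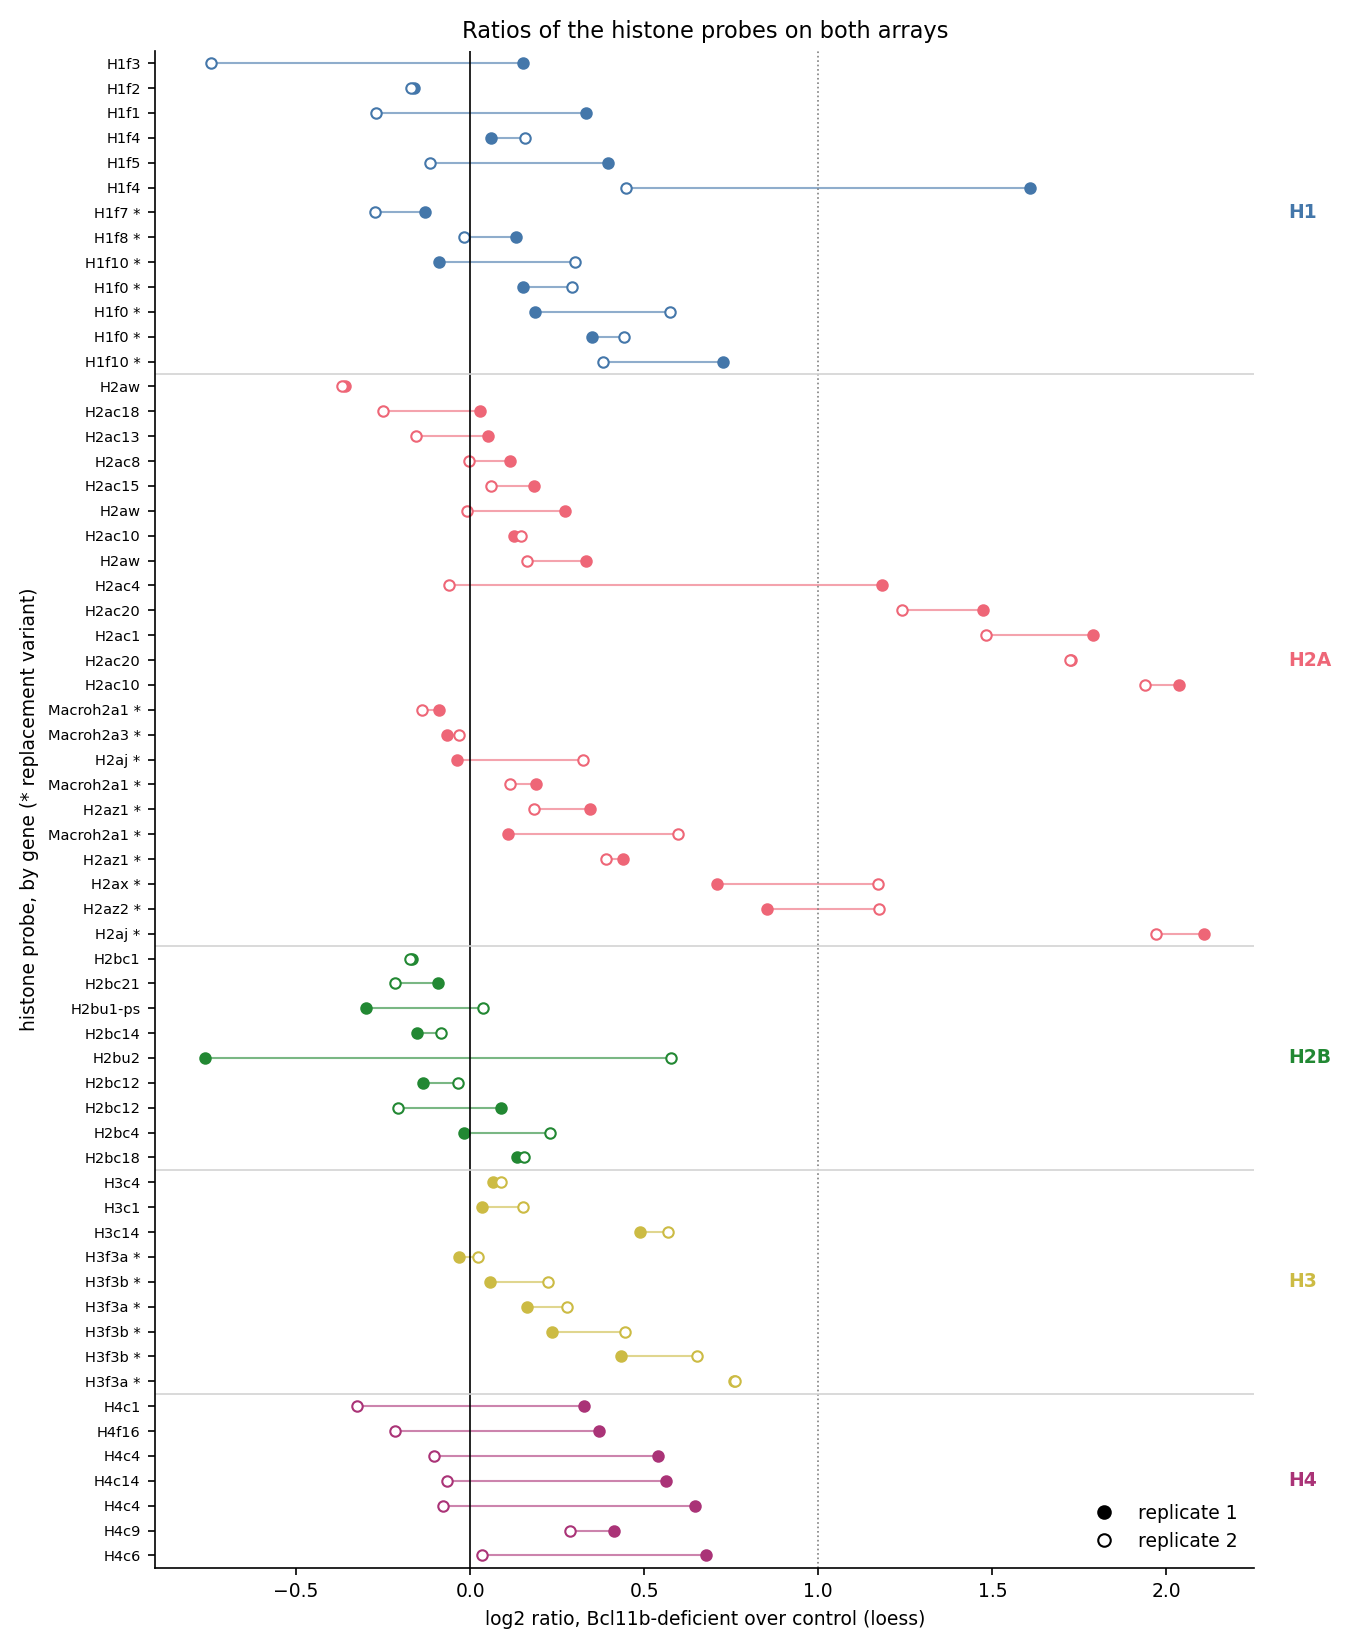
Log2 ratio of deficient over control on replicate 1 (filled points) and replicate 2 (open points) for each of the 61 kept histone probes, grouped by class, with replacement variants marked by an asterisk and a dotted line at a ratio of 1. The 5 probes beyond the dotted line on both arrays are all H2A probes, the H2B probes other than H2bu2 lie near 0, and all 7 H4 probes have replicate 1 to the right of replicate 2.

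Part of this pattern followed signal intensity. Across the 61 probes the mean ratio and the mean log2 intensity of both channels had a Pearson r of 0.50 and a Spearman rho of 0.45, as a description of probes that share the same 2 arrays. The trend was not particular to histones, since loess left the brightest probes of the whole array with high ratios. Among the 355 other kept probes whose mean log2 intensity reached 16, the median ratio was 0.34, and among the 76 that reached 17 it was 1.03. The 18 histone probes with an intensity of at least 16 had a median of 0.47, and the 43 dimmer ones had 0.11. Each histone ratio was therefore also read against the 101 probes nearest in intensity on the same array. After subtraction of the running median of those neighbours, the median over the 61 histone probes was 0.12, that of the replacement variants was 0.15 and that of the H3 probes was 0.05.

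**Figure D2:**
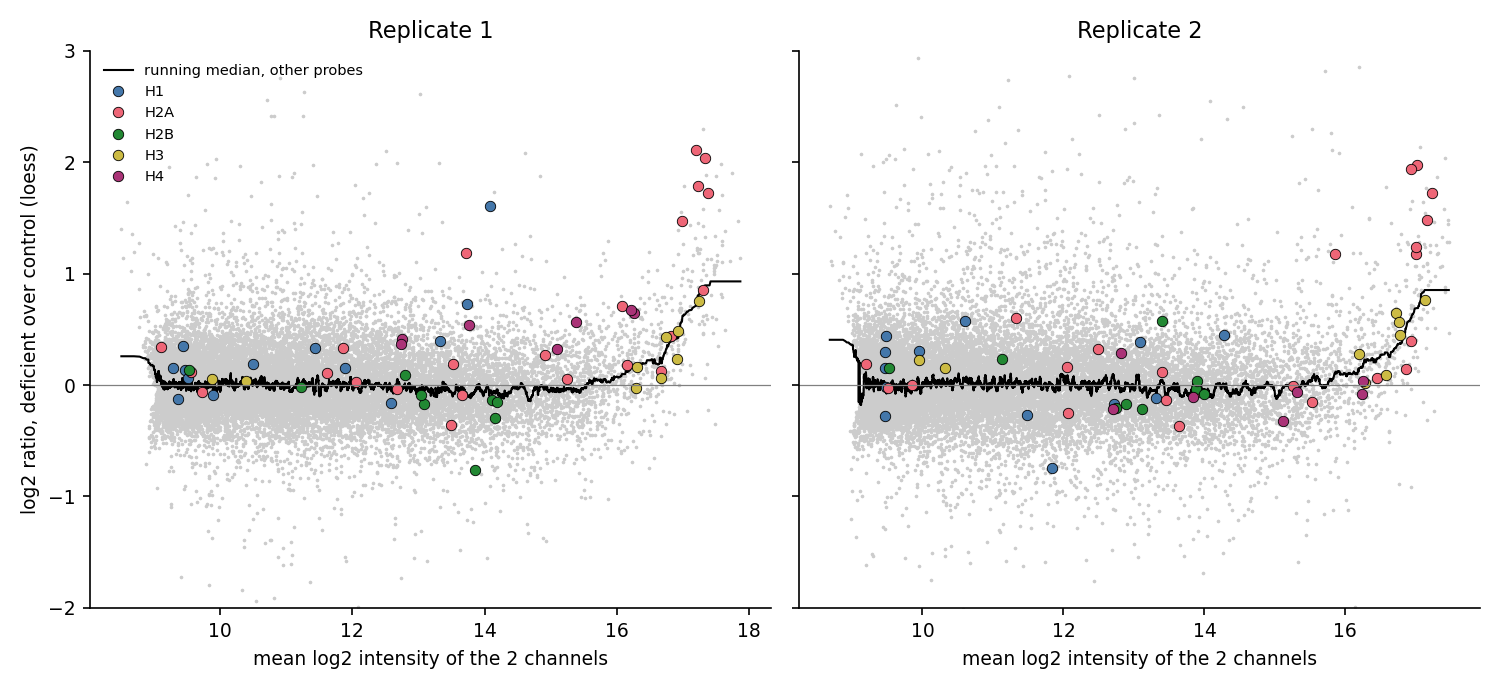
Log2 ratio of deficient over control against mean log2 intensity on each array, with all 21538 kept probes in grey, histone probes coloured by class and the running median of other probes as a line. The line climbs above an intensity of about 16 on both arrays, and the brightest H3f3a and H2az1 probes lie close to it, while the 5 highest H2A probes lie above it.

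The replication-dependent H2A genes held the highest ratios of all replication-dependent histones. H2ac20, formerly Hist2h2ac, encodes a core H2A of the chromosome 3 cluster. Its brighter probe, on mm8 chr3:96305950-96306006, lists no gene by accession. This probe had processed signals of 87865 in deficient and 36895 in control cells on replicate 1, and 79849 and 31985 on replicate 2. Both deficient signals lay above both control signals, and the log2 ratios were 1.73 and 1.72, with a mean of 1.73 ± 0.07 (SE, n = 2), a 3.31-fold difference with a limma adjusted p of 0.085. The second probe named H2ac20 lies at the H2ac18 and H2ac19 locus on mm8 chr3:96331233-96331292 and lists all 3 genes, so its ratios of 1.47 and 1.24 belong to none of them alone.

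H2ac1, formerly Hist1h2aa, belongs to the large chromosome 13 cluster and is known for its expression in testis. Its probe, on mm8 chr13:23942255-23942314, stood at percentile 99.8 of intensity among all kept probes. It had processed signals of 105725 in deficient and 44098 in control cells on replicate 1, and 97496 and 47209 on replicate 2. The genotypes did not overlap, and the log2 ratios were 1.79 and 1.48, with a mean of 1.64 ± 0.11 (SE, n = 2) and a limma adjusted p of 0.085. H2ac10, formerly Hist1h2af, is another core H2A gene of that cluster. Its probe on mm8 chr13:23541704-23541763, which also lists H2ac24, had processed signals of 86045 and 26836 on replicate 1 and 64848 and 20725 on replicate 2, deficient before control. Its log2 ratios were 2.04 and 1.94, with a mean of 1.99 ± 0.07 (SE, n = 2) and a limma adjusted p of 0.085.

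Of the replacement variants, only H2aj reached such ratios. H2aj encodes H2A.J, an H2A that differs from the canonical protein mainly at its C terminus. Its probe on mm8 chr6:136772856-136772915 had processed signals of 91035 in deficient and 28645 in control cells on replicate 1, and 78036 and 25945 on replicate 2. The log2 ratios were 2.11 and 1.97, with a mean of 2.04 ± 0.08 (SE, n = 2), a 4.11-fold difference with a limma adjusted p of 0.085. These 4 probes and the shared one at the H2ac18 and H2ac19 locus, 5 in all, were at least 2-fold higher on both arrays, against 0.673% of all kept probes, and no histone probe was at least 2-fold lower on both. Of the 76 other probes that reached an intensity of 17, however, 42.1% were also at least 2-fold higher on both arrays.

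Against the 101 probes nearest in intensity, these H2A probes still stood high. Only 76 other kept probes reached an intensity of 17, so the neighbours of the brightest probes were in part dimmer. As ratios climbed with intensity there, the ranks may be too high and the subtraction may remove too little. H2aj exceeded 99.0% of its 101 neighbours on each array, and so did the H2ac10 probe. H2ac20 exceeded 94.1% and 96.0% on replicates 1 and 2, and H2ac1 exceeded 96.0% and 91.1%. The probe named H2ac20 at the H2ac18 and H2ac19 locus exceeded 97.0% and 83.2%. The ratios were smaller once the neighbours' median was subtracted, at 1.34 for H2aj, 1.24 for H2ac10, 0.85 for H2ac20, 0.81 for H2ac1 and 0.70 for the probe at the H2ac18 and H2ac19 locus. Of the 5 probes, 2 then remained at least 2-fold higher on both arrays. The share of all kept probes at that level after this subtraction was not counted. The scanner software's own processed signals gave 3.09-fold for H2aj, 3.17-fold for H2ac10, 2.44-fold for H2ac20, 2.23-fold for H2ac1 and 1.94-fold for the probe at the H2ac18 and H2ac19 locus. The separate-channel limma fit called all 5 probes higher, with adjusted p from 0.019 for H2aj to 0.023 for the second H2ac20 probe.

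Other probes of the same genes did not all share these ratios. A second H2aj probe, on mm8 chr6:136774094-136774153, had log2 ratios of -0.04 and 0.32, below the first by 2.15 and 1.65 on replicates 1 and 2. A second H2ac10 probe, on mm8 chr13:23541396-23541455, lists 4 genes and had ratios of 0.13 and 0.15, below the first by 1.91 and 1.79. Its direction depends on the scaling, since it was -0.26 with the processed signals and -0.23 against probes of like intensity. H2aj and H2ac10 were the only ones of 13 genes with several kept probes whose probes differed by at least 1 on both arrays. The position of each probe within the transcript was not assigned, because no annotation of the mm8 build was used here. Whether the H2A probes also bind mRNAs of other H2A genes was not tested, as no probe sequences were used.

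Among the other replication-dependent H2A probes, H2ac4 had ratios of 1.18 and -0.06, which differ by more than the probe's own mean of 0.56. H2ac13 (0.05 and -0.15), H2ac18 (0.03 and -0.25), H2ac8 (0.11 and -0.00) and H2ac15 (0.18 and 0.06) all had means between -0.11 and 0.12, the H2ac13 and H2ac18 probes listing further H2A genes. H2aw, formerly Hist3h2a, lies on chromosome 11 and had 3 kept probes with mean ratios of -0.36, 0.13 and 0.25. The first of these, at -0.36 on replicate 1 and -0.37 on replicate 2, had the lowest mean of all 61 histone probes and was the 1 probe lower at an unadjusted limma p under 0.05, with an adjusted p of 0.11. Over the 13 replication-dependent H2A probes the median was 0.14, with 7 higher and 1 lower on both arrays.

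H2B probes did not share the high ratios of 5 H2A probes, but all H2B probes were dimmer. The brightest H2B probe had a mean log2 intensity of 14.09, while those 5 H2A probes lay between 16.99 and 17.30. H2A probes dimmer than 14.09 had mean ratios from -0.36 for 1 H2aw probe to 0.56 for H2ac4. As ratios climbed among bright probes of the whole array, class and intensity cannot be told apart in this contrast. H2B pairs with H2A as a dimer in the nucleosome. The 9 kept probes, of 8 genes, had mean ratios from -0.17 to 0.14, with 1 higher and 4 lower on both arrays. H2bc1 had -0.17 on both arrays, H2bc21 had -0.09 and -0.22, H2bc14 had -0.15 and -0.09, and H2bc18, the 1 that was higher on both arrays, had 0.13 and 0.16. These directions hold with loess, with processed signals and with centring on like intensity, but under median centring H2bc1, H2bc14 and H2bc21 turned to 0.08, 0.24 and 0.11. H2bu2, formerly Hist3h2ba, had opposite ratios of -0.76 and 0.58 on the 2 arrays, with processed signals of 4519 in deficient and 7558 in control cells on replicate 1 and 5375 and 3429 on replicate 2. The probe named for the pseudogene H2bu1-ps, formerly Hist3h2bb, lists H2bu2 by accession and had -0.30 and 0.04. H2bc4 had -0.02 and 0.23. The probes named for H2bc12 each list 4 H2B genes, as does that of H2bc14, and had means of -0.09 and -0.06, which belong to no single gene.

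Neighbouring H2A and H2B genes were set side by side, since many are transcribed away from each other from a shared stretch. The reference holds 13 pairs of close H2A and H2B neighbours, counted without regard to strand, and 2 of them had a kept probe named for each gene. The H2ac20 probe used here lists no gene by accession. Whether the H2A probes also bind mRNAs of other H2A genes was not tested, so their ratios may not belong to the named gene alone. H2ac20 and H2bc21 are divided by 191 bases, shown above, and had mean ratios of 1.73 ± 0.07 and -0.16 ± 0.08 (SE, n = 2 each). H2ac1 and H2bc1 are divided by 280 bases and had mean ratios of 1.64 ± 0.11 and -0.17 ± 0.07 (SE, n = 2 each). The H2A probes were far brighter than the H2B probes, with mean log2 intensities of 17.3 against 13.1 and 17.2 against 13.0, and bright probes of the whole array had high ratios. Relative to probes of like intensity the means were 0.85 and -0.11 for the first pair, and 0.81 and -0.15 for the second. Few other probes were as bright as these H2A probes, so their values may keep part of the trend. The difference within a pair was not tested.

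**Figure D3:**
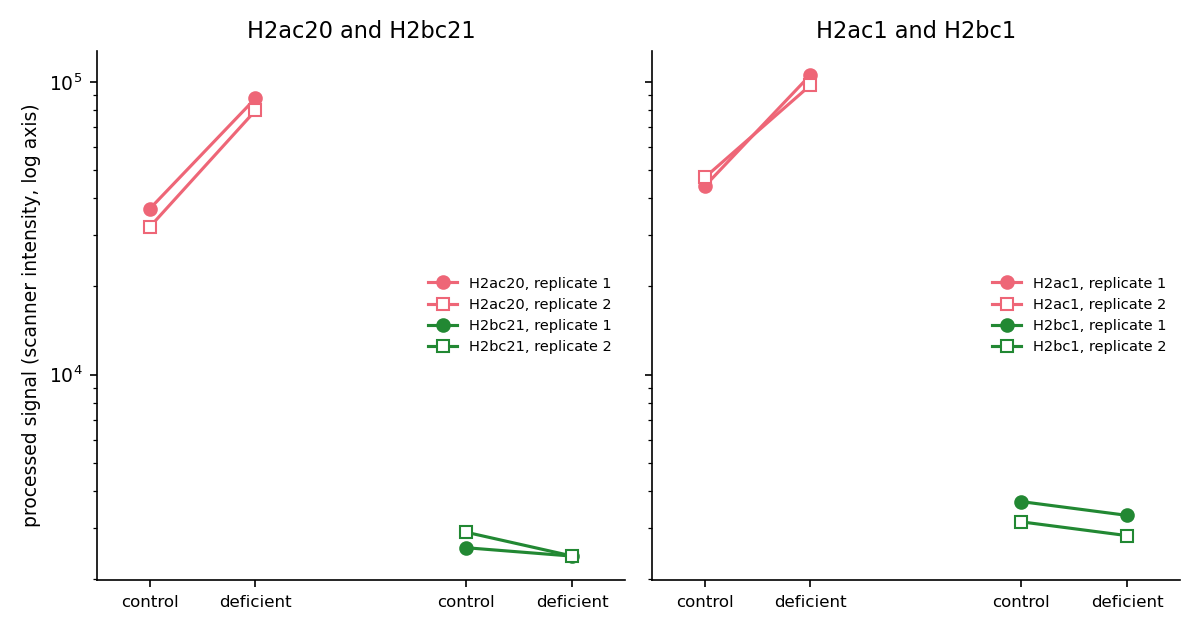
Processed signals on a log axis in control and deficient cells for the neighbouring genes H2ac20 and H2bc21 (left) and H2ac1 and H2bc1 (right), with filled circles for replicate 1 and open squares for replicate 2. The H2A lines climb from control to deficient on both arrays, while the H2B lines are flat or slope slightly down. Heights of different probes are not comparable levels.

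The other H2A variants were mostly higher. H2ax encodes H2A.X, which is phosphorylated at DNA breaks, including those made in DP cells by receptor gene rearrangement. It had processed signals of 32230 in deficient and 23206 in control cells on replicate 1, and 34825 and 17493 on replicate 2. The genotypes did not overlap, and the log2 ratios were 0.71 and 1.17, with a mean of 0.94 ± 0.14 (SE, n = 2) and a limma adjusted p of 0.10. It exceeded 99.0% and 95.05% of its neighbours in intensity, and 0.84 remained after their median was subtracted. The separate-channel limma fit called it higher with an adjusted p of 0.042.

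H2az1 and H2az2 encode the H2A.Z proteins, which mark nucleosomes at promoters. H2az2, with ratios of 0.85 and 1.17, had a mean of 1.01 ± 0.11 (SE, n = 2) and a limma adjusted p of 0.093, and it was called by the separate-channel limma fit with an adjusted p of 0.029. Its probe was among the brightest, and it exceeded only 48.5% of its neighbours on replicate 1 and 80.2% on replicate 2. H2az1 on chromosome 3 had ratios of 0.44 and 0.39, but -0.09 relative to probes of like intensity, and its processed signals of 41532 and 40283 on replicate 1 and 44036 and 43269 on replicate 2 differed little. A second probe named for H2az1 lies on chromosome 6 rather than chromosome 3 and was well above background in deficient cells alone, with ratios of 0.35 and 0.19 and a bound of at least 1.13-fold higher.

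MacroH2A carries a large globular domain and is enriched in silent chromatin. The 3 probes of Macroh2a1 had mean ratios of -0.11, 0.15 and 0.35. The lowest of them was 0.19 under median centring, so its direction depends on the scaling. Macroh2a3, as the reference names it, is listed there as a transcribed pseudogene, was counted here with the replacement variants, and had -0.07 and -0.03. The probe of Macroh2a2 did not pass the filter.

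H3 probes were higher on both arrays in 8 of 9 cases, though their excess over bright probes in general was small. Their median log2 intensity was 16.6. Of other kept probes with an intensity of at least 16, 72.1% were also higher on both arrays, and of those with at least 17, 96.1%. Over all kept probes the share was 36.7%. H3f3a and H3f3b both encode H3.3, the variant placed outside replication. The 3 H3f3a probes had ratios of 0.76 and 0.76, 0.16 and 0.28, and -0.03 and 0.02 on replicates 1 and 2. The first of these had processed signals of 61109 in deficient and 50798 in control cells on replicate 1 and 56129 and 43541 on replicate 2, and it turned to -0.07 relative to probes of like intensity. The second turned to -0.03 with processed signals, and the third to 0.61 under median centring. The 3 H3f3b probes had means of 0.14, 0.34 and 0.54. The one at 0.34 was -0.06 against probes of like intensity and -0.01 with processed signals.

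Among the replication-dependent H3 genes, the probe named H3c14, which lists 3 H3 genes, had ratios of 0.49 and 0.57. Its mean was 0.53 ± 0.07 (SE, n = 2), with 0.13 relative to probes of like intensity. H3c1 had 0.03 and 0.15. The probe named H3c4, which lists 4 H3 genes, had 0.06 and 0.09 after loess, but -0.17 with the processed signals and -0.19 relative to probes of like intensity. The H3 median thus moved from 0.22 after loess to 0.09 with processed signals. The separate-channel limma fit called 3 of 9 H3 probes higher, against 3.22% of all kept probes. They were of H3f3a, H3f3b and H3c14, with adjusted p of 0.026, 0.046 and 0.034 in that fit. Their mean log2 intensities lay between 16.7 and 17.2, where ratios were high across the array.

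H4 and the replication-dependent H1 genes differed between the arrays more than other histones. The 7 H4 probes had a median of 0.54 on replicate 1 and -0.08 on replicate 2. In 6 of the 7, replicate 1 exceeded replicate 2 by over 0.5, against 4.21% of all kept probes. H4c6 had 0.68 and 0.03, with processed signals of 33903 in deficient and 25342 in control cells on replicate 1 and 27417 and 31389 on replicate 2. The brighter H4c4 probe had 0.64 and -0.08, H4c14 had 0.56 and -0.07, H4c1 had 0.33 and -0.32, and H4f16 had 0.37 and -0.22. H4c9 was the exception, with 0.41 and 0.29 and a mean of 0.35 ± 0.08 (SE, n = 2). All H4 genes encode the same core protein, and several of their probes list more than 1 gene.

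Linker histone H1 genes of the replication-dependent kind showed the same order of arrays. H1f4 encodes one of the main somatic H1 proteins. Its brighter probe, on mm8 chr13:23629303-23629362, had processed signals of 11243 in deficient and 3536 in control cells on replicate 1, and 8595 and 6297 on replicate 2. The genotypes did not overlap, but the log2 ratios of 1.61 and 0.45 differed by over 1, and the mean of 1.03 ± 0.32 (SE, n = 2) had a limma adjusted p of 0.17. A dim second probe named H1f4, placed farther away than the length of the gene, had 0.06 and 0.16. H1f3 had 0.15 and -0.74, H1f1 had 0.33 and -0.27, and H1f5 had 0.40 and -0.12, so that each of these 3 had opposite signs. H1f2 alone was lower on both arrays after loess, at -0.16 and -0.17, and turned to 0.07 under median centring. Of the 13 replication-dependent H1 and H4 probes, 10 had replicate 1 above replicate 2 by over 0.5. The summed erythroid signals, which in deficient cells were below control on replicate 1 and above it on replicate 2, also reversed between the arrays. So did the stromal sums, from 9303 against 9520 to 3335 against 1927, and the macrophage sums went from 28246 against 25581 to 30214 against 9912. Their part in these values was not tested.

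**Figure D4:**
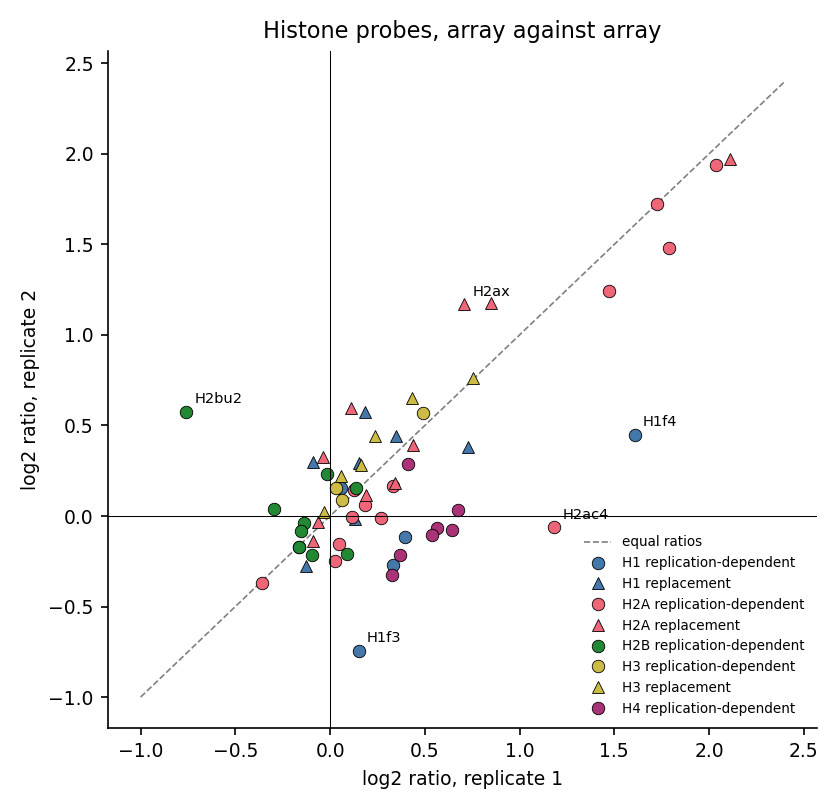
Log2 ratio on replicate 2 against replicate 1 for the 61 kept histone probes, coloured by class, with circles for replication-dependent genes, triangles for replacement variants and a dashed line at equal ratios. The H4 probes lie below the line near 0 on replicate 2, H1f4 and H2ac4 lie far below it and H2bu2 lies far above it.

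Replacement linker histones were measured with 7 kept probes. H1f0 encodes H1.0, which accumulates in cells that stop dividing. Its 3 probes had ratios of 0.19 and 0.57, 0.35 and 0.44, and 0.15 and 0.29, all higher on both arrays. The second, a dim probe with processed signals of 114 in deficient and 66 in control cells on replicate 1 and 124 and 60 on replicate 2, was called higher by the separate-channel limma fit with an adjusted p of 0.049. H1f10 had one probe at 0.73 and 0.38 and another at -0.09 and 0.30. H1f7, known from testis, had -0.13 and -0.27, and H1f8, known from oocytes, had 0.13 and -0.02.

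Across all 61 histone probes the Pearson r between the arrays was 0.74, and over all kept probes it was 0.63. Among the 43 histone probes with an intensity under 16 it was 0.21. These values describe 2 arrays and carry no test. The 14 kept probes that list more than 1 gene had a median of 0.11, and the other 47 had 0.14. By cluster, replication-dependent medians were 0.11 over 25 probes on chromosome 13, 0.25 over 7 on chromosome 3 and -0.09 over 5 on chromosome 11. The 10 probes that did not pass the filter were of H1f6, Macroh2a2, H2ac6, H2ac19, H2bc6 and H2bc22, which had no other kept probe, and further probes of H1f3, H2aw and H4f16.

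**Figure D5:**
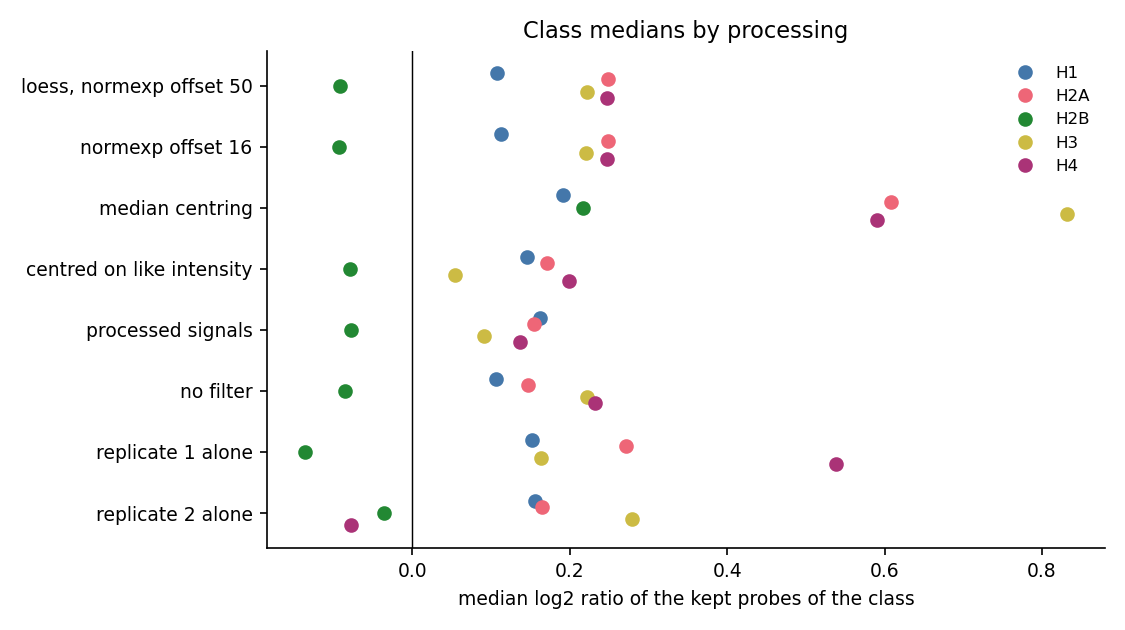
Median log2 ratio of the kept probes of each histone class under 6 ways of processing and on each array alone. H2B lies below 0 except under median centring, where it is 0.22, and H4 moves from 0.54 on replicate 1 to -0.08 on replicate 2.

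Genes that make or place histones were followed as lists, with 1 probe per gene. By the gene-level limma fit, 0 of 43 histone genes and 0 members of any list were called, as for 0.0% of all 14924 genes. Separate-channel limma called 8 of the 43 histone genes, all higher, against 4.76% of all genes higher and 3.83% lower. Median centring called 16, all higher, against 5.88% and 0.704%. The processed signals called H2ac10 and H2aj alone, both higher, against 0.496% and 0.382%. Among genes for histone transcription and 3′ end formation, 22 of 25 were measured, 11 were higher and 4 lower on both arrays, against 36.5% and 38.5% of all genes, and the median was 0.07. Slbp, which binds the histone stem-loop, had ratios of 0.60 and 0.46. E2f1, an activator of S phase genes, had 0.48 and 0.55, and the cyclin genes Ccne1 and Ccna2 had means of 0.53 and 0.31. At an unadjusted limma p under 0.05 there were 5 genes of this list, all higher, against 15.1% of all genes higher and 14.1% lower. The separate-channel limma fit called 2, both higher, against 4.76% of all genes.

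Histone chaperones carry histones to DNA. All 32 listed were measured, with 19 higher and 5 lower on both arrays, against 36.5% and 38.5% of all genes, and a median of 0.21. Chaf1a, a subunit of the CAF-1 complex at replication forks, had 0.65 and 0.47. Tonsl, which reads newly made H4, had 0.51 and 0.56, Rbbp4, a histone-binding subunit of several complexes, had 0.45 and 0.44, and the importin gene Ipo4 had 0.25 and 0.55. There were 13 with an unadjusted limma p under 0.05, all higher, against 15.1% of all genes higher and 14.1% lower. The separate-channel limma fit called 3 higher, against 4.76% of all genes.

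Most S phase genes had higher signals in deficient cells. Of 36 measured, 33 were higher and 0 lower on both arrays, against 36.5% and 38.5% of all genes, with medians of 0.41 on replicate 1 and 0.45 on replicate 2. Mcm6 (0.97 and 1.18) and Mcm3 (0.65 and 0.86) encode subunits of the replicative helicase. The sliding clamp gene Pcna had 0.88 and 0.64, and Uhrf1, which maintains DNA methylation, had 0.82 and 0.75. Pcna and Mcm6 were among the bright genes, with mean log2 intensities of 16.87 and 16.25, and their means moved from 0.76 and 1.08 to 0.41 and 0.80 with processed signals. At an unadjusted limma p under 0.05 there were 27 genes, all higher, against 15.1% of all genes higher and 14.1% lower. The separate-channel limma fit called 13 higher and 0 lower, against 4.76% and 3.83% of all genes. The S phase list did not show the array order of H4 and H1, and the H2B median was -0.09. The relation between this list and the histone ratios was not tested.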

How the data were processed

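RNA of the 2 genotypes was measured on 2 dual-colour Agilent arrays, read by the authors with Agilent Feature Extraction 9.5.3.1 (per the submitters' processing notes). The deposited mean, local background and processed signals are scanner intensity values. The deposited log10 ratio is processed Cy5 over Cy3, per the file headers, and the deposited value table equals it within 0.005 at each spot. Its centring is the scanner software's, with a median of 0. Log2 ratios were computed here from the deposited mean signals with normexp (offset 50) and loess in limma 3.58.1 and statmod 1.5.0 under R 4.3.3, with controls at weight 0 and outlier spots left out. Spots were averaged per probe, and 21538 of 41174 probes that were well above background in 1 channel on both arrays were kept. The mean of both arrays was tested against 0 with limma, adjusted over all kept probes by Benjamini-Hochberg. SE are limma's moderated values. Both arrays were on 1 slide, so slide is no term. The number of arrays limits the precision. Gene lists used the brightest kept probe. Probes took current symbols by accession (24380), symbol (6307), synonym (2425) or array name (8062). Alternatives were processed signals, another offset of 16, median centring, centring on probes of like intensity, other filters, the value table, separate channels and 1 array alone. Named genes were all replacement variants and, per class, the 3 replication-dependent probes of largest absolute mean ratio with 1 sign on both arrays. The brightest probe per class and genes with discordant probes were named as well. From the other lists, the 4 of largest absolute mean ratio with 1 sign on both arrays were named. The remaining members are given to account for every gene. Members and lists were chosen with earlier results of these data known. The fit was tested on simulated data with known changes.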

Additional observations from a re-analysis of the deposited data

How the results depend on the processing

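With 2 arrays of 1 dye orientation, depth is not counted and signal over background sets the limit; dim probes have compressed ratios. Where no cause is named, the cause was not tested. Median centring, which moved the median of all kept probes to 0.12 and leaves the intensity trend in place, called 17 histone probes, 16 histone genes and 4, 5 and 20 genes of the 3′ end, chaperone and S phase lists. Of all kept probes it called 3.82% higher and 0.562% lower, and of all genes 5.88% and 0.704%. It gave 9 probes at least 2-fold higher and medians of 0.44 (all), 0.43 (replication-dependent), 0.48 (replacement), 0.19 (H1), 0.61 (H2A), 0.22 (H2B) and 0.83 (H3). The share of all kept probes at least 2-fold higher under median centring was not counted. Other kept probes with an intensity of at least 17 had a median of 1.77 under median centring. Under it H1f2 (0.066), Macroh2a1 (0.19), H2bc1 (0.082), H2bc14 (0.24), H2bc21 (0.11) and H3f3a (0.61) turned higher. Separate channels, at gene level chosen after seeing the data, called 11 probes, 8 histone genes and 2, 3 and 13 genes of the lists. Of all kept probes they called 3.22% higher and 2.51% lower, and of all genes 4.76% and 3.83%. Centring on like intensity gave 2 probes at least 2-fold higher, medians of 0.15 (replacement), 0.15 (H1), 0.17 (H2A) and 0.054 (H3), and turned H2az1 (-0.088), H2ac10 (-0.23), H3f3a (-0.073), H3f3b (-0.056) and H3c4 (-0.19). How many of all kept probes were at least 2-fold higher after this centring was not counted. Processed signals and the value table gave medians of 0.16 (H1), 0.15 (H2A) and 0.091 (H3) and turned H2ac10 (-0.26), H3f3a (-0.030), H3f3b (-0.011) and H3c4 (-0.17). The processed signals called 2 histone genes, against 0.496% of all genes higher and 0.382% lower. Offset 16 gave 0.11 (H1), and no filter gave 0.15 (H2A). A single array gave medians from 0.15 to 0.18 (all), 0.15 to 0.16 (H1) and 0.16 to 0.27 (H2A), with H4 at 0.54 and -0.08. Centring by base composition was not run, since no probe sequences were used here. No paired analysis was possible because each array already sets both genotypes against each other and the result is that ratio.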
